A study of Mus musculus with 25 samples.

Results

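The polymeric immunoglobulin receptor gene Pigr and 5 antibody-related genes (Jchain, Igkj1, Igkv1-135, Ighm and Mzb1) were followed across kidney podocyte preparations of Actn4 knock-in (KI) and control (WT) mice. For each gene, the probe sets that the array annotation assigns to that gene alone were taken, and the brightest of them, by its mean over all 25 arrays, stands for the gene. This found 8 probe sets for 5 of the 6 genes, among 17097 genes on the array. Mzb1, which encodes an endoplasmic reticulum protein of antibody-secreting cells, was not analysed here. The genes were chosen by hand with earlier results of these data known; the signals of these same 25 arrays count as used, and the rule names no comparison. Their differences between ages are therefore given without a test, and nothing is read from how many of them were called between genotypes.

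All mice carried a transgene that places an eGFP fusion of ribosomal protein L10a behind the collagen1α1 promoter and enhancer (Tg:Col1a1-eGFPL10a), on the strain labelled C57/129sv, with sex labelled unknown. The fusion allows ribosomes of the cells that express it to be pulled down with their RNA (translating ribosome affinity purification), so what was measured is polysomal RNA and the driver decides which cells contribute. KI mice came from a cross with the Actn4+/tm1.1Plk line, a point mutation in the actin crosslinker alpha-actinin-4. The sources used here do not give the number of mutant alleles in the array mice. There were 4 KI and 4 WT arrays at 2 weeks, 4 KI and 5 WT arrays at 5 weeks, and 4 KI and 4 WT arrays at 44 weeks (postnatal days 14, 35 and 300). Nothing in the labels ties each array to its own animal, so errors and p-values cover the spread between these samples, which may be technical. The mutated gene Actn4 was not analysed here, and the genotype labels were not checked on it.

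Pigr encodes a receptor of epithelial cells. It binds polymeric IgA and IgM at the basolateral side, carries them across the cell, and is cut at the apical side to release secretory component with its antibody. The partner genes belong to the plasma cell: Jchain encodes the joining chain that links antibody units into polymers and is needed for binding by the receptor, Ighm the constant region of the IgM heavy chain, and Igkv1-135 and Igkj1 a variable and a joining segment of the kappa light chain. In the kidney the receptor is known from tubular epithelium and not as a podocyte gene.

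The promoter windows of Pigr and Jchain are shown because both genes were far higher at 44 weeks than before. They come from RefSeq on GRCm38.p6 and run from 250 bases before to 50 bases after the gene's start. A window was found for these 2 of the 6 genes. Pigr lies on the plus strand (chr1:130826434-130826733) and Jchain on the minus strand (chr5:88527848-88528147), and each is printed 5′ to 3′ on the gene's own strand. Capitals mark a match to the E-box CACGTG, the motif of factors such as Usf1 and Usf2.
Pigr: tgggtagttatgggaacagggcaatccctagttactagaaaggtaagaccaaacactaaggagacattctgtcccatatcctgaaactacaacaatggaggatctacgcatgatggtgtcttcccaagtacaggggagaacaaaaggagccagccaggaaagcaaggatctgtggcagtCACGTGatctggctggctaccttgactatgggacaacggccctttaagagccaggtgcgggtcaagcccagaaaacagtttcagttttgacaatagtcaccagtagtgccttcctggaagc
Jchain: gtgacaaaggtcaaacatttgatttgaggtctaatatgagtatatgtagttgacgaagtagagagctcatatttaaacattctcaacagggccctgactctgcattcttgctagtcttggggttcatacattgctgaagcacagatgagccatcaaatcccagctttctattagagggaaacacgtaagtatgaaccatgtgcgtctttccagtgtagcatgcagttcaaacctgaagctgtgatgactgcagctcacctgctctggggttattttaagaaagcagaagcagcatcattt
The Pigr window held 1 E-box, 71 bases before the start, and 7.15% of all 32851 windows of this length held one. The Jchain window held none. Also searched on both strands were the octamer ATGCAAAT, an interferon-response element and an NF-kappaB element. Neither window held any of them, and they occurred in 1.74%, 3.44% and 0.411% of all windows. These are letter matches and not shown binding sites.

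The deposited values are log2 signals, and a difference of 1 is a doubling. At 2 weeks Pigr was near the dim end of the array in both genotypes. It read 4.72, 5.04, 5.48 and 5.27 in the 4 KI arrays, against 5.03, 5.16, 5.11 and 4.97 in the 4 WT arrays. The groups overlapped, and the dim limit below which genes were not tested was 4.603. At 5 weeks Pigr read 6.74, 8.05, 6.15 and 6.30 in KI arrays, against 6.18, 5.09, 6.72, 8.04 and 7.96 in WT arrays. The spread within each group was wider at this age than at 2 weeks, with 1 KI array and 2 WT arrays near 8. At 44 weeks it read 10.63, 10.49, 9.80 and 10.62 in KI arrays, against 12.76, 12.00, 12.88 and 12.22 in WT arrays. Every array of this age stood above every younger one, and every KI array stood below every WT array. Of all genes tested, 12.5% in KI and 5.77% in WT had every 44-week array above every 5-week array of that genotype, and 16.3% in KI and 11.3% in WT had it above every 2-week array.

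In WT, Pigr averaged 12.47 ± 0.42 at 44 weeks and 6.80 ± 1.25 at 5 weeks (SD, n = 4 and 5). This difference of 5.67 ± 0.45 (SE), or 50.8-fold, was the highest of all 11968 genes tested. Against 2 weeks the difference was 7.40 ± 0.48, or 169-fold, again first in rank. In KI, Pigr averaged 10.38 ± 0.40 at 44 weeks and 6.81 ± 0.86 at 5 weeks (SD, n = 4 each). The difference was 3.58 ± 0.48 against 5 weeks and 5.26 ± 0.48 against 2 weeks (38.3-fold), ranks 4 and 2 of the genes tested. Between 5 and 2 weeks the difference was 1.68 ± 0.48 in KI and 1.73 ± 0.45 in WT. A second Pigr probe set gave the same order, with 10.99, 10.78, 9.69 and 10.77 in KI arrays at 44 weeks, against 12.46, 11.91, 12.43 and 12.10 in WT arrays.

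Between genotypes at 44 weeks, Pigr was 2.08 ± 0.48 lower in KI on the log2 scale, 0.236 times the WT level. With limma over all genes this did not pass (adjusted p = 0.32), although the arrays did not overlap. At this age 0.0251% of the 11968 genes tested were called, and 1.31% had every KI array below every WT array. Over the alternative fits to all arrays or the compared arrays, the limma adjusted p ran from 0.0185 to 0.697. Only the fit with array weights, at 0.0185, passed. The second probe set gave a difference of -1.67 ± 0.59. At 2 and 5 weeks the KI minus WT difference was 0.06 ± 0.48 and 0.01 ± 0.45. The genotype difference at 44 weeks minus that at 5 weeks was -2.09 ± 0.66 (adjusted p = 0.114 in limma), and 0.0171 without WT array 10 of 5 weeks or 0.0248 with array weights. Minus that at 2 weeks it was -2.14 ± 0.67 (adjusted p = 1 in limma). In these 2 comparisons limma called 0% of the genes tested, and 2335 and 359 genes had an unadjusted p under 0.05.

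**Figure D1:**
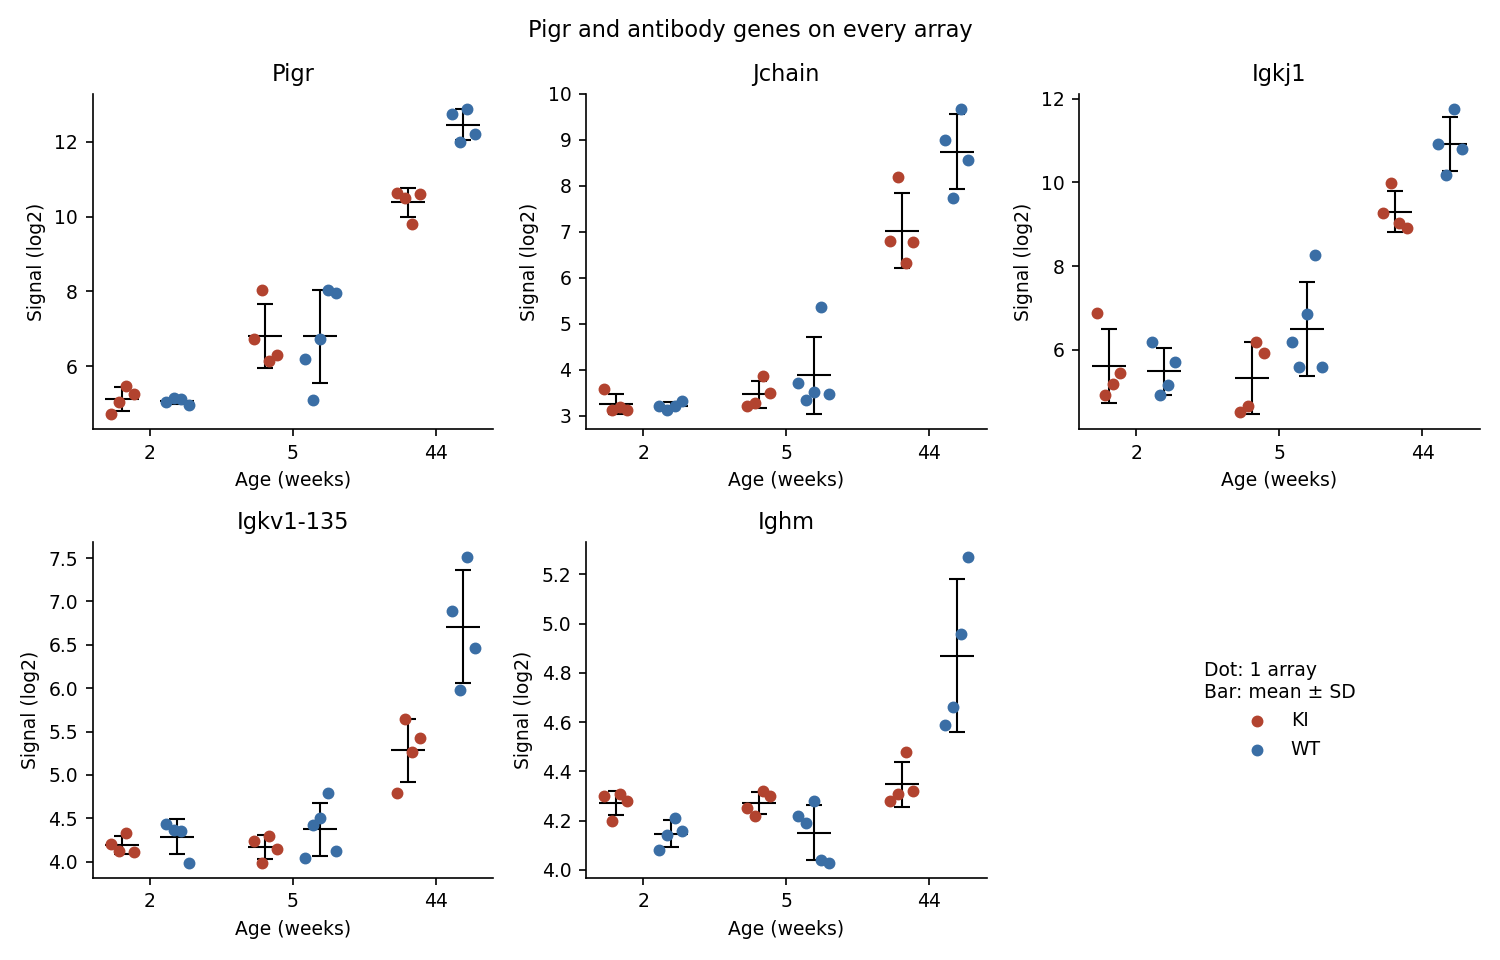
Signal (log2, y axis) of Pigr and 4 antibody genes on each array by age in weeks (x axis), KI in red left of WT in blue, with mean and SD. At 44 weeks Pigr lies between 9.80 and 10.63 in KI arrays and between 12.00 and 12.88 in WT arrays, and the y axes differ between panels.

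Jchain was at the bottom of the signal range in young mice. It ranged from 3.13 to 3.59 in KI arrays and from 3.12 to 3.32 in WT arrays at 2 weeks. At 5 weeks it ranged from 3.20 to 3.87 in KI arrays, against 3.71, 3.34, 3.52, 5.36 and 3.48 in WT arrays, where array 9 stood apart. At 44 weeks it read 6.80, 8.19, 6.31 and 6.78 in KI arrays, against 8.99, 7.74, 9.67 and 8.56 in WT arrays. KI array 32 lay above the lowest WT array, so the groups overlapped. The gene passed the filter on dim genes through the 44-week arrays alone, since the other group means lay below the limit. Differences from the younger ages are thus measured against dim signal.

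The Jchain difference between 44 and 5 weeks was 3.56 ± 0.41 in KI and 4.86 ± 0.39 in WT. No fold or rank is read from it, as the 5-week means lie below the dim limit. At 44 weeks it averaged 7.02 ± 0.81 in KI and 8.74 ± 0.81 in WT (SD, n = 4 each). The KI minus WT difference of -1.72 ± 0.41 did not pass in limma (adjusted p = 0.389). Over the alternative fits the adjusted p ran from 0.041 to 0.814, and only the fit with array weights, at 0.041, passed. At 5 weeks the difference was -0.42 ± 0.39, and it was -0.05 without WT array 9.

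Igkj1, the kappa joining segment, was probed by a set of the x_at class, whose probes can match several related transcripts, so other kappa transcripts may contribute. It ranged from 4.92 to 6.89 in KI arrays and from 4.92 to 6.18 in WT arrays at 2 weeks. At 5 weeks it ranged from 4.52 to 6.20 in KI arrays and from 5.58 to 8.26 in WT arrays, with array 9 again highest. At 44 weeks it read 9.27, 9.99, 9.04 and 8.92 in KI arrays, against 10.93, 10.17, 11.76 and 10.81 in WT arrays. The 44-week groups did not overlap with each other or with any younger group. Of all genes tested, 1.31% had every KI array below every WT array at 44 weeks. Every 44-week array was above every 5-week array of its genotype for 12.5% in KI and 5.77% in WT.

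Igkj1 at 44 weeks was 1.61 ± 0.53 lower in KI, 0.327 times the WT level, and did not pass (adjusted p = 0.681 in limma). Its difference between 44 and 5 weeks was 3.98 ± 0.53 in KI and 4.42 ± 0.51 in WT, ranks 2 and 3 of the genes tested. At 5 weeks the KI minus WT difference was -1.18 ± 0.51 (adjusted p = 0.096 in limma), an age at which 22% of genes tested were called. It was -0.73 without WT array 9, and the adjusted p was 0.0435 without WT array 10 and 0.00631 with array weights.

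Igkv1-135, a kappa variable segment, had means between 4.17 and 4.37 in the 4 younger groups and passed the filter on dim genes through the WT arrays of 44 weeks, where it is high. At 44 weeks it read 4.79, 5.65, 5.27 and 5.43 in KI arrays, against 6.89, 5.98, 7.51 and 6.46 in WT arrays. The KI arrays all lay below the WT arrays, as they did for 1.31% of all genes tested. The difference of -1.43 ± 0.23, or 0.372 times the WT level, passed in limma (adjusted p = 0.0216), the only lower call of this comparison (0.00836% of the genes tested). Since the filter kept the gene through those same WT arrays, and the gene was chosen with results known, nothing is read from this call. The call was lost without WT array 17 (adjusted p = 0.0847), KI array 31 (0.191) or KI array 33 (0.0531). It was also lost with a proximal tubule covariate (0.0709), a sex covariate (0.0666) or only the 8 arrays compared (0.612). Of its other probe sets, one gave -1.57 ± 0.30 and the other, at 2.87 to 3.10 in all group means, 0.07 ± 0.08.

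The probe set annotated as Ighm, the IgM heavy chain constant region, was too dim to be tested, with a mean of 4.34 over all arrays. Its sequence record belongs to a run of records of which others are annotated as kappa variable segments, so whether it measures the IgM heavy chain is uncertain, and its values are those of the probe set. It read 4.28, 4.31, 4.48 and 4.32 in KI arrays at 44 weeks, against 4.59, 4.66, 4.96 and 5.27 in WT arrays. The younger group means lay between 4.15 and 4.27, so the 44-week KI mean of 4.35 ± 0.09 was near them and the WT mean of 4.87 ± 0.31 was above (SD, n = 4 each). The KI minus WT difference was -0.53 ± 0.11, and in a limma fit with no filter on dim genes it did not pass (adjusted p = 0.107).

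**Figure D2:**
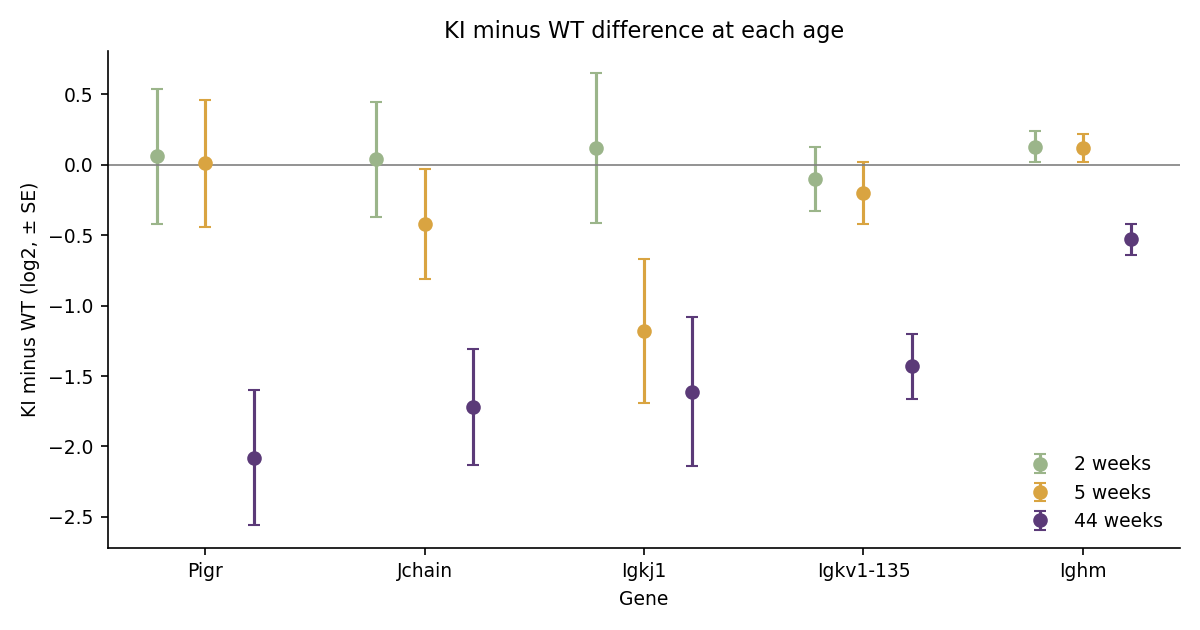
KI minus WT difference (log2, y axis) of each gene (x axis) at 2, 5 and 44 weeks, with the standard error. At 44 weeks all 5 genes lie below 0, from -2.08 for Pigr to -0.53 for Ighm.

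Within the 44-week WT arrays Pigr, Jchain, Igkj1 and Igkv1-135 shared 1 order: array 17 was highest, then 15, 18 and 16. Ighm did not, with array 18 highest and array 15 lowest, and the second Pigr probe set put array 15 (12.46) above array 17 (12.43). Within the 44-week KI arrays they did not. Array 32 was highest for Jchain, Igkj1 and Igkv1-135, while Pigr was highest in array 31. In WT at 5 weeks array 9 was highest for the same 4 genes, though on the second Pigr probe set array 10 was highest (8.56, against 7.85 in array 9). Array 10 had a Pigr of 7.96 with a Jchain of 3.48. KI array 24 of the same age had a Pigr of 8.05 with a Jchain of 3.28. These arrays paired a high Pigr signal for their age with a Jchain below the dim limit. Over the 25 arrays with group means removed, Pearson's r was 0.78 for Jchain with Igkj1 and 0.70 with Igkv1-135. For Pigr it was 0.38 with Jchain, 0.12 with Igkj1 and 0.18 with Igkv1-135. Ighm gave -0.32 with Pigr and -0.06 with Jchain. These describe arrays that share their ages and preparation, and carry no test.

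**Figure D3:**
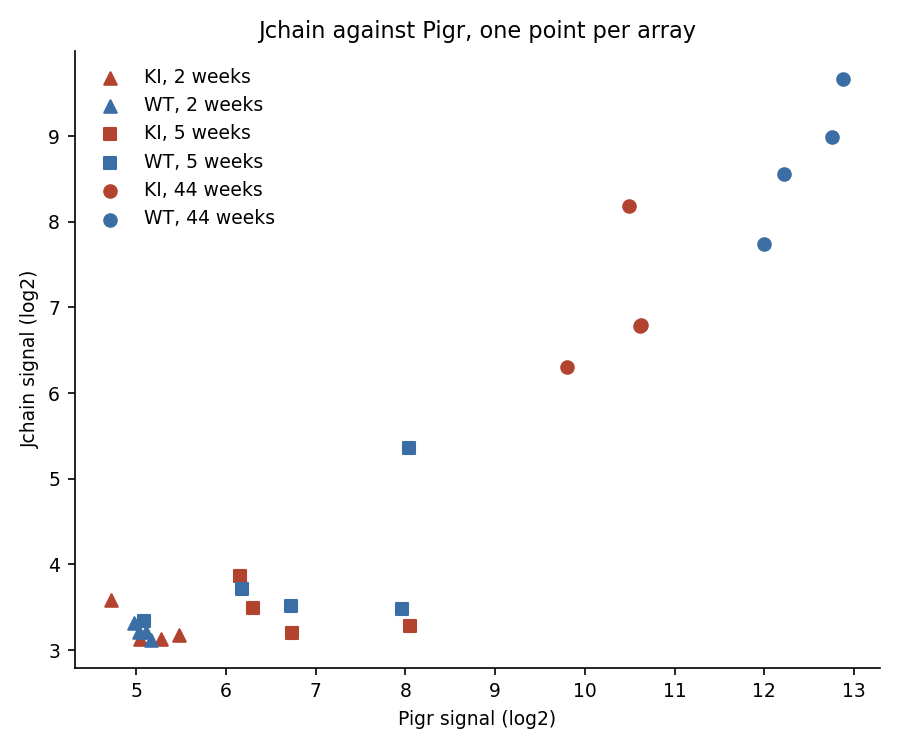
Jchain signal (y axis, log2) against Pigr signal (x axis, log2), 1 point per array, by genotype and age. The younger arrays spread from 4.72 to 8.05 in Pigr with all but 1 below 4 in Jchain, and the 44-week arrays lie apart at the upper right.

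Another 12 immunoglobulin genes had a probe set, of which only Igkv9-120 was above the dim limit. In a fit with no filter, over 17097 genes, 4 of the 12 rose between 44 and 5 weeks in WT and none fell, where 8.22% of all genes rose, and their median difference was 0.22 against 0.01 for all genes. In KI none rose and 1 fell (Igkv1-117, -0.36 ± 0.12, adjusted p = 0.0483 in limma), with a median of -0.01 against -0.04, where 5.68% of all genes rose and 12.8% were called in either direction. Between genotypes at 44 weeks, 2 of the 12 were lower in KI, with 0.0409% of all genes called. These were Igkv15-103 and Iglv1, a kappa and a lambda variable segment, named after their values were seen. Both lay below the dim limit at the younger ages, and the list was chosen with earlier results known. Nothing is read from these calls.

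Igkv15-103 read 4.49, 4.16, 3.76 and 3.16 in KI arrays at 44 weeks, against 6.90, 4.91, 7.72 and 6.62 in WT arrays. The groups did not overlap, where 1.31% of all genes above the dim limit had every KI array below every WT array. The difference was -2.65 ± 0.36 (adjusted p = 0.00166 in limma with no filter). Iglv1 read 4.80, 5.38, 4.23 and 4.01 in KI arrays, against 8.31, 5.46, 6.68 and 6.46 in WT arrays, with a difference of -2.12 ± 0.36 (adjusted p = 0.0225 in limma with no filter). All younger group means of both genes lay between 3.03 and 3.93, with SDs of 0.10 to 0.22. At 44 weeks the SD was 1.18 in WT for both genes. In KI it was 0.57 for Igkv15-103 and 0.61 for Iglv1. The standard errors and adjusted p pool all groups, so they do not measure the wider spread at 44 weeks. The IgA heavy chain gene Igha, whose product is the main cargo of the receptor, stayed at group means of 3.06 to 3.27 and below the dim limit. The KI minus WT difference of Igha at 44 weeks was 0.01 ± 0.14.

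**Figure D4:**
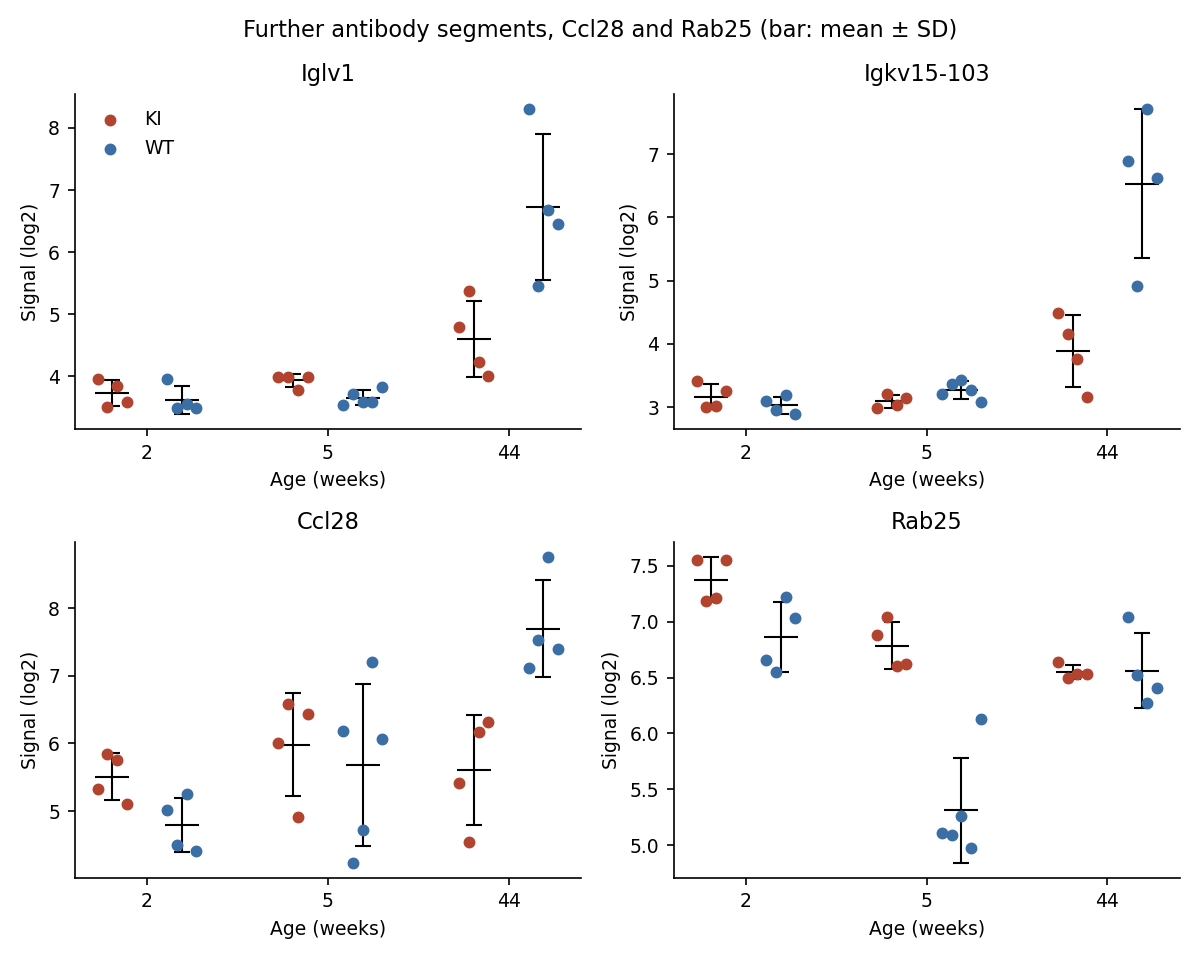
Signal (log2, y axis) on each array by age in weeks (x axis) of Iglv1, Igkv15-103, Ccl28 and Rab25, KI in red left of WT in blue, with mean and SD. At 44 weeks Ccl28 lies between 4.55 and 6.31 in KI arrays and between 7.11 and 8.75 in WT arrays.

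Of 10 plasma cell genes tested, 2 rose and 3 fell between 44 and 2 weeks in KI, and likewise in WT, where 30.2% of all genes tested were called in KI and 31.6% in WT. The median difference was -0.17 in KI and -0.11 in WT, against -0.01 and -0.03 for all genes. Sec11c, a signal peptidase subunit, rose (0.41 ± 0.13 in KI and 0.45 ± 0.13 in WT), as did Ell2, an elongation factor (0.69 ± 0.15 and 0.70 ± 0.15). Prdx4, Txndc5 and Eaf2 fell, Eaf2 by 2.42 ± 0.31 in KI and by 1.89 ± 0.31 in WT. Some defining markers were below the dim limit in every group mean: Tnfrsf17, the survival receptor BCMA, at 3.67 to 3.97, Irf4 at 4.04 to 4.55 and the coactivator Pou2af1 at 3.37 to 4.26. At 44 weeks Pou2af1 read 3.70, 4.29, 3.72 and 3.42 in KI arrays, against 4.63, 3.72, 4.91 and 3.79 in WT arrays. Its 2-week means were 3.42 in KI and 3.37 in WT. Prdm1 was tested and not called between 44 and 2 weeks. It averaged 4.71 in KI and 4.44 in WT at 2 weeks, and 5.19 and 4.93 at 44 weeks. Xbp1, the transcription factor of secretory cells, lay at 9.92 to 10.23 in all groups.

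Of 6 B cell genes tested, Ebf1 fell between 44 and 2 weeks in both genotypes (1.13 ± 0.39 lower in KI and 1.35 ± 0.39 lower in WT) and none rose. In KI that call was lost without KI array 20 or 22 of 2 weeks or KI array 32 or 33 of 44 weeks. In WT the count was 2 without WT array 1, 6, 7, 10, 16 or 18 or KI array 31. The median difference was 0.04 in KI and -0.02 in WT, with 30.2% of all genes tested called in KI and 31.6% in WT. The B cell surface gene Ms4a1 stayed at 3.47 to 3.63 and Cd79a at 4.51 to 4.76. Ebf1 averaged 9.65 in KI and 9.74 in WT at 2 weeks, so its signal is not read as that of B cells. Cd72 and Blnk were not called. From 2 to 44 weeks Cd72 went from 4.81 to 5.16 in KI and 4.91 to 5.34 in WT. Blnk went from 6.20 to 6.59 in KI and 6.09 to 6.52 in WT. Fewer cells of a type and less RNA per cell cannot be told apart in such preparations.

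Of 10 genes tested that attract plasma cells or keep them alive, Ccl28 had no overlap between genotypes at 44 weeks. Of all genes tested, 1.31% had every KI array below every WT array at that age. Ccl28 encodes a chemokine of epithelia that draws antibody-secreting cells through the receptor Ccr10. Between 44 and 2 weeks 31.6% of all genes tested were called in WT and 30.2% in KI. Ccl28 rose in WT between these ages by 2.90 ± 0.52 (adjusted p = 2.38e-04 in limma), while in KI the difference was 0.10 ± 0.52 (adjusted p = 0.901). The genotype difference at 44 weeks minus that at 2 weeks was -2.80 ± 0.74 and did not pass (adjusted p = 1 in limma). At 44 weeks it read 5.41, 4.55, 6.17 and 6.31 in KI arrays, against 7.11, 7.53, 8.75 and 7.40 in WT arrays, with no overlap. The KI minus WT difference of -2.09 ± 0.52 did not pass in limma (adjusted p = 0.473), nor did its change from 5 to 44 weeks (-2.38 ± 0.72, adjusted p = 0.108). In WT at 5 weeks array 9 was again highest, at 7.20.

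Of the same list, Itga4 rose and Tgfb1 and Cxcl12 fell in WT between 44 and 2 weeks. In KI, Tnfsf13, the plasma cell survival factor APRIL, rose by 1.83 ± 0.63 and Cxcl13, a B cell chemokine, by 1.30 ± 0.45. Tgfb1, Cxcl12 and Ccl19 fell in KI. Tnfsf13, Cxcl13 and Ccl19 were not called in WT but moved the same way. Their WT means were 6.80, 5.38 and 10.06 at 2 weeks, and 8.31, 5.92 and 9.11 at 44 weeks. No difference between the KI and WT changes was called in this list. The median difference was -0.12 in KI and -0.10 in WT. Between these ages 30.2% of all genes tested were called in KI and 31.6% in WT. The KI count of 5 was 2 without KI array 20 or 21 of 2 weeks or KI array 32 of 44 weeks, and 3 without KI array 33.

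Of 15 genes tested of the machinery that carries the receptor, 2 rose and 3 fell in KI and 3 rose and 1 fell in WT between 44 and 2 weeks (median 0.12 in KI and 0.23 in WT). Between these ages 30.2% of all genes tested were called in KI and 31.6% in WT. Rab11fip5, a recycling endosome effector, rose by 0.78 ± 0.21 in KI and 0.70 ± 0.21 in WT, and Rab3b, a small GTPase that binds the receptor, by 0.64 ± 0.15 and 0.43 ± 0.15. The WT count of 4 was 2 without WT array 2 or 3 of 2 weeks, without WT array 18 of 44 weeks, or with a sex covariate. At 5 weeks 9 of the 15 were called between genotypes, 5 higher and 4 lower in KI, with Pigr at a difference of 0.01. Of all genes tested, 14.3% were higher and 7.75% lower in KI at that age. Rab25, the GTPase of apical recycling, averaged 6.79 ± 0.21 in KI and 5.31 ± 0.47 in WT (SD, n = 4 and 5), higher by 1.47 ± 0.20 (adjusted p = 5.75e-04 in limma). Myo5b, its motor, was higher by 1.89 ± 0.59 and Ap1m2, an epithelial sorting adaptor, by 0.96 ± 0.24.

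The count of 9 at 5 weeks was 4 without WT array 7 or 9 or KI array 23, and 5 without WT array 8 or KI array 24, 25 or 26 of that age. It was 2 with a proximal tubule covariate 5 with a sex covariate and 3 with only the arrays compared. At that age the mean of 17 proximal tubule genes was 9.78 to 10.56 in KI arrays and 8.75 to 10.04 in WT arrays. Its part in the count was not tested otherwise.

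Of 19 regulators of Pigr transcription tested, 1 rose and 2 fell in KI between 44 and 2 weeks (median -0.15), and 3 fell and none rose in WT (median -0.24). Between these ages 30.2% of all genes tested were called in KI and 31.6% in WT, so nothing about regulators is read from these counts. Irf1, an interferon-induced activator, rose by 0.48 ± 0.17 in KI. In WT, where it was not called, it averaged 7.48 at 2 weeks and 7.89 at 44 weeks. Tnfrsf1a, the receptor of tumour necrosis factor, fell by 0.82 ± 0.16 in KI and by 1.05 ± 0.16 in WT. Foxm1 fell by 0.40 ± 0.15 in KI, and Ticam1 and Usf2 fell in WT, Usf2 by 0.49 ± 0.13. The KI change minus the WT change was -0.17 ± 0.21 for Foxm1, 0.61 ± 0.36 for Ticam1 and 0.28 ± 0.18 for Usf2. None of these was called. The KI count of 3 was 1 without KI array 19, 21 or 22 of 2 weeks or KI array 34 of 44 weeks, and the WT count of 3 was 5 without WT array 1 of 2 weeks. At 5 weeks Nfkb2, Myd88 and Il17ra were higher in KI and Irf2 and Usf2 lower, Usf2 with a difference of -0.44 ± 0.12. That count of 5 was 2 without WT array 7 or KI array 23, 8 without WT array 10 and 1 with a proximal tubule covariate. At that age 22% of all genes tested were called between genotypes.

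Between 44 and 2 weeks 30.2% of all genes tested were called in KI and 31.6% in WT. Of 10 other immunoglobulin receptors tested, 3 rose and 2 fell in KI between these ages (median 0.30), and 4 rose and 2 fell in WT (median -0.01). The IgG receptors Fcgr3 and Fcgr4 and their signalling chain Fcer1g rose in both genotypes. Fcgr3 rose by 0.99 ± 0.20 in KI and 0.67 ± 0.20 in WT. In WT Fcgr2b, which also binds IgG, rose by 1.06 ± 0.38. In KI, where Fcgr2b was not called, it averaged 6.84 at 2 weeks and 7.68 at 44 weeks. Amn, a subunit of the cubilin receptor, fell in both and Tfrc fell in KI, while the neonatal Fc receptor Fcgrt fell by 0.90 ± 0.25 in WT. The KI change minus the WT change was -0.68 ± 0.45 for Tfrc and 0.36 ± 0.35 for Fcgrt, neither called. At 5 weeks, when 14.3% of all genes tested were higher and 7.75% lower in KI, 6 of these receptors were higher and Trim21 was lower. Among those higher were Fcgr2b (1.49 ± 0.36) and Fcgrt (0.96 ± 0.23). That count of 7 was 3 without WT array 7 or KI array 23, 4 without WT array 8 or KI array 24 or 26, and 0 with a proximal tubule covariate.

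At 44 weeks no gene of any of the 13 lists was called between genotypes in limma, of 157 distinct genes tested, and 12 had an unadjusted p under 0.05, where 6.37% of all genes tested did. Among these were Ccl28, Igkv9-120 and Rab11a, lower in KI, and Fcgr3 and Mrc1, higher in KI. Without WT array 15 of 44 weeks, 1 gene of the carrying machinery was called. With array weights 1 gene each was called in 7 lists (other immunoglobulin genes, attraction and survival, carrying machinery, regulators, other receptors, proximal tubule and injured epithelium). With no filter on dim genes 1 B cell gene and the 2 immunoglobulin genes above were called.

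Markers of other cells were set beside these results. The mean of 15 macrophage and dendritic cell genes was 6.54 to 6.94 in KI arrays at 44 weeks and 5.72 to 6.85 in WT arrays, against 5.68 to 6.15 in KI arrays and 5.51 to 5.91 in WT arrays at 2 weeks. Of these genes, 9 rose and 1 fell in KI (6 calls without KI array 21 of 2 weeks) and 7 rose and 1 fell in WT. They included Ctss, Cd74 and H2-Aa. Between 44 and 2 weeks 14.3% of all genes tested rose and 15.9% fell in KI, and 13.6% rose and 18% fell in WT. The mean of 19 genes of the loop of Henle, distal tubule or collecting duct was 7.87 to 8.11 in KI arrays at 44 weeks and 7.55 to 8.26 in WT arrays. At 2 weeks it was 7.33 to 8.25 in KI arrays and 6.92 to 7.48 in WT arrays. The group means were 7.73 in KI and 7.26 in WT at 2 weeks, and 7.98 and 7.96 at 44 weeks. In WT 10 of these genes rose between 44 and 2 weeks (6 without WT array 18 of 44 weeks), among them Umod and Slc12a3. In KI 2 rose (1 without KI array 19, 20, 21, 32 or 34 and 4 without KI array 22). No gene of this list was called for a difference between the KI and WT changes. The part of these markers in the results was not tested. The proximal tubule covariate holds none of these markers. With it the KI minus WT difference of Pigr at 44 weeks was -2.17, against -2.08 without it, and nothing about other cells is read from that.

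Podocyte markers were bright, but so were tubule markers. The mean of 15 podocyte genes lay between 10.21 and 10.98 on all 25 arrays and Podxl at group means of 12.60 to 12.89. The mean of the 17 proximal tubule genes reached 10.99 on 1 WT array of 44 weeks, with Kap at group means of 12.25 to 12.91 and, of the loop of Henle, Umod at 10.59 to 11.75. Bright podocyte markers alone do not show the preparations to be free of tubule RNA. Of the 15 podocyte genes, 9 rose in KI and 8 in WT between 44 and 2 weeks, and none fell. The shares of all genes tested that rose were 14.3% in KI and 13.6% in WT. Sex was uneven: the signal of 3 Y-linked genes was high in 3 of 4 KI arrays and 1 of 4 WT arrays at 44 weeks, and in 1 of 4 KI arrays and 4 of 4 WT arrays at 2 weeks. At 5 weeks it was high in 3 KI arrays and 2 WT arrays, and low in 1 KI array and 3 WT arrays. The differences between 44 and 2 weeks thus also compare arrays of unlike sex signal, in opposite directions in KI and WT. At 44 weeks Pigr was 9.80 to 10.63 in KI and 12.76 in WT among the high arrays. Among the low ones it was 10.62 in KI and 12.00 to 12.88 in WT. Jchain was 6.31 to 8.19 in KI and 8.99 in WT among the high arrays, and 6.78 in KI and 7.74 to 9.67 in WT among the low ones.

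The genes most like Pigr over the 25 arrays were Astn1 (Pearson's r 0.93), then H2-M3, G3bp2, H2-D1 and Srgap1 (0.91 each). The arrays form age clusters, and these values carry no test. Astn1 averaged 8.22 in KI and 8.11 in WT at 44 weeks. The class I histocompatibility gene H2-D1 averaged 11.02 in KI and 11.25 in WT. Most like Jchain were Sppl2a, Adam9, Hrh1 and Dpy19l4 (0.90 each) and Mmgt1 (0.89). Hrh1, the histamine H1 receptor, averaged 5.47 in KI and 5.52 in WT at 44 weeks, against 4.13 in KI and 4.25 in WT at 2 weeks.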

How the data were processed

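Polysomal RNA was measured on 25 Affymetrix mouse arrays with perfect-match probes only. It was amplified once with the NuGEN WT-Ovation kit and labelled with biotin, per the labels. The deposited values are 1 log2 signal per probe set and array, with the authors' summary and scaling method not given in the sources used here. Their log2 base was read from the values (1.86 to 13.62), and array medians differ by at most 0.17. Depth has no counterpart here, so the number of arrays limits the precision. All 25 columns were mapped by their titles.

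The annotation gives 1 symbol to 28898 of the 45141 probe sets and several to 551, and 15692 are not listed in it. The probe set with the highest mean stood for each of 17097 genes, and the 30% dimmest genes (under 4.603) were left out, leaving 11968. Differences between 6 group means over all arrays were tested by lmFit and eBayes of limma 3.58.1 (R 4.3.3), with Benjamini-Hochberg adjustment at 0.05. The steps were tested on simulated data. The members and the 13 gene lists were chosen with earlier results of these data known. The text names the members, up to 4 genes of a list each way past the threshold, and the 5 genes most like Pigr and Jchain. Genes named outside this rule (Iglv1, Igkv15-103, Igha, defining markers) were chosen after their values were seen. Alternatives were quantile normalization, median centring, leaving out no dim genes or 50%, other probe sets or their mean, array weights, a prior both trended and robust, proximal tubule and sex covariates, fits on the compared arrays alone, and each array left out.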

Additional observations from a re-analysis of the deposited data

Results flagged for a closer look

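In 30 groups of member values, 2 held an array that stood apart by Dixon's test (chance marks about 1 in 20 groups). Jchain read 3.59 in KI array 19 of 2 weeks, against 3.13 to 3.18 in the other KI arrays, all below the dim limit. Igkj1 was highest in the same array, at 6.89. Jchain read 5.36 in WT array 9 of 5 weeks, against 3.34 to 3.71 in the other WT arrays. That array was also highest of its group in Pigr (8.04, on the brighter of its probe sets), Igkj1 (8.26), Igkv1-135 (4.79) and Ccl28 (7.20).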

How the results depend on the processing

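Differences within 1 standard error of 0 were taken to have no direction. On that basis no member's difference changed direction under any alternative fit. The dimmest probe set of Igkv1-135, described apart, did differ in sign: its difference between 44 and 5 weeks in WT was -0.21 ± 0.08 (2.34 ± 0.22 on the main set), and its genotype change between 5 and 44 weeks was 0.31 ± 0.12 (-1.22 ± 0.32). The cause was not tested. For Pigr and Jchain, calls appeared that the fit over all arrays with equal weights did not make. With array weights, the KI minus WT difference at 44 weeks was -2.03 for Pigr (adjusted p = 0.0185 in limma) and -1.60 for Jchain (0.041), and the Pigr difference at 44 weeks minus that at 5 weeks was -1.97 (0.0248). Leaving out 1 array at a time, that last value ran from -2.40 to -1.66 and the adjusted p from 0.0171 to 0.191. The Pigr difference at 44 weeks ran from -2.23 to -1.88 (adjusted p 0.063 to 0.709) and that of Jchain from -2.11 to -1.41 (0.0637 to 0.8). The Igkv1-135 difference was -0.97 as the mean of its 3 probe sets. With array weights the Igkj1 difference at 5 weeks passed, and the Igkv1-135 change between 5 and 44 weeks passed at -0.88. No paired analysis was possible because replicate numbers are not shared between groups. Counts over small lists moved with single arrays, as given beside them. Dim signal limits Jchain, Igkv1-135 and Ighm at the younger ages.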

Other observations

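Of 14 genes of injured epithelium tested, 1 rose and 4 fell in KI between 44 and 2 weeks, and 3 fell and none rose in WT. Between these ages 14.3% of all genes tested rose and 15.9% fell in KI, and 13.6% rose and 18% fell in WT. Krt8, a keratin of simple epithelia, fell by 1.42 ± 0.51 in KI and by 1.95 ± 0.51 in WT, and Cd24a and Cldn1 fell in both. The neutrophil chemokine Cxcl1 rose by 1.87 ± 0.34 in KI. For Cxcl1 the KI change minus the WT change was 1.25 ± 0.48 and was not called. The KI count of 5 was 2 without KI array 33 of 44 weeks and 3 without KI array 19, 21, 31, 32 or 34. The WT count of 3 was 5 without WT array 7 or 10 of 5 weeks or WT array 16 of 44 weeks.

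Of 17 proximal tubule genes tested, 6 rose and 2 fell in KI and 7 rose and 2 fell in WT between 44 and 2 weeks. Between these ages 30.2% of all genes tested were called in KI and 31.6% in WT. Cyp4b1 rose by 4.54 ± 0.85 in KI and 4.05 ± 0.85 in WT, while the water channel Aqp1 fell by 2.12 ± 0.42 and 1.78 ± 0.42. Of 6 T cell and NK cell genes tested, Cd247, the zeta chain of the T cell receptor, rose by 1.17 ± 0.39 in WT and none was called in KI. For Cd247 the KI change minus the WT change was -0.45 ± 0.55 and was not called. The WT call was lost without WT array 1 of 2 weeks or WT array 16 or 18 of 44 weeks, with 2 calls without KI array 32. In KI 1 call appeared without KI array 20 of 2 weeks or KI array 31 of 44 weeks.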
